A study of Rattus norvegicus with 12 samples.

Results

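Control-leaning m6A regions of the rat retina are described here: stretches of RNA enriched for N6-methyladenosine (m6A) that were called in most control animals and in at most 1 diabetic animal, without separating the groups completely. They were chosen by the peak calls themselves. Merging the 6 peak lists wherever regions shared 1 base or more left 12467 union regions, and a union region was a member when at least 2 of the 3 control lists and at most 1 of the 3 diabetic lists had a peak in it, leaving out the 25 regions found in all 3 control lists and no diabetic list. This gave 452 members, 3.63% of all union regions. Because presence in the lists, and with it every height and enrichment of the same peaks, chose the members, those values are given as a description with no test.

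The libraries came from retinas of male Sprague-Dawley rats of about 100 g, an outbred strain. Control rats (listed as genotype WT; n = 3) received citrate buffer into the abdomen on 5 consecutive days and weighed 107 ± 3.59 g (SD). Diabetic rats (listed as genotype Diabetic, although the disease was induced; n = 3) received streptozotocin at 60 mg/kg on the same schedule, after 12 h of fasting, and weighed 102 ± 1.81 g (SD). Streptozotocin enters pancreatic beta cells through a glucose transporter and kills them, so the model lacks insulin rather than responding poorly to it. Rats with a fasting glucose above 16.7 mmol/L counted as diabetic. The time between induction and collection of the retina is not given in the sources used here. Each animal gave an immunoprecipitated (IP) library and an input library, and each peak list compares the 2 libraries of 1 animal.

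m6A is the most common internal modification of mRNA. A nuclear complex built around METTL3 and METTL14 writes it, mostly near stop codons and in long exons, FTO and ALKBH5 can remove it, and proteins of the YTH family bind it and alter decay, splicing or translation of the transcript. In m6A-IP sequencing, fragments carrying the mark are pulled down with an antibody, and a peak is a stretch where IP reads pile up above the input. A peak therefore depends on the methylated share of a transcript and on the amount of that transcript, and fewer cells of a type and less RNA per cell cannot be told apart in bulk retina. The peak lists carry no gene names and no genome build, so neither genes nor sequences are given for the members, and the tissue could not be checked against retinal markers.

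The lists differed in length and depth. Control replicates 1, 2 and 3 had 9082, 9103 and 10160 regions, and diabetic replicates 1, 2 and 3 had 9731, 10552 and 9998. Within an animal the larger library was scaled down, and the smaller one held 8175227 to 9030946 reads in controls and 8729247 to 12354616 in diabetic rats. Among regions missing from exactly 1 of the 6 lists, control 1 was the missing list 381 times and control 2 was 294 times, against 42 to 108 times for each of the other 4 lists.

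Members were spread unevenly over the lists. Control 1 had a peak in 366 of the 452 members (81.0%, Wilson 95% interval 77.1 to 84.3%), control 3 in 346 (76.5%, 72.4 to 80.2%) and control 2 in 243 (53.8%, 49.2 to 58.3%). Intervals here and below cover counting error only. Members with 2 control lists and no diabetic list numbered 178 (39.4%), those with 2 control lists and 1 diabetic list 223 (49.3%), and those with all 3 control lists and 1 diabetic list 51 (11.3%). More than any other combination, control 1 with control 3 and diabetic 2 accounted for 97 members, while control 1 with control 2 and diabetic 2 accounted for 4. The pair of control 1 and control 2 alone had 78 members, control 1 and control 3 alone 68, and control 2 and control 3 alone 32.

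**Figure D1:**
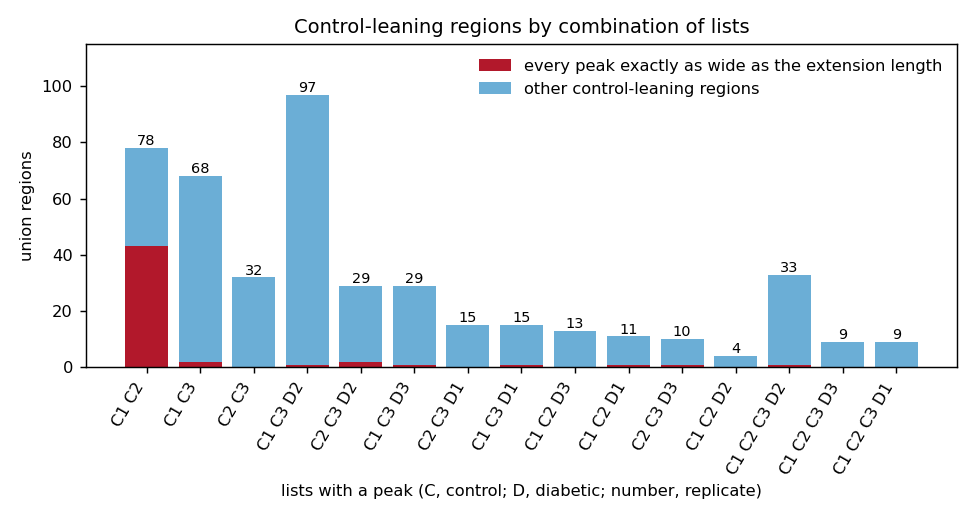
Number of control-leaning union regions (vertical axis) in each of the 15 combinations of lists that meet the rule (horizontal axis; C, control; D, diabetic; the number is the replicate). Bars give all regions of a combination, and the red part gives those in which every peak is exactly as wide as the extension length of its library: 43 of the 78 regions of control 1 and control 2 alone, and at most 2 in any other combination.

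In the 274 members with a diabetic peak, that peak came mostly from 1 animal. Diabetic 2, whose list is the longest, supplied it in 163 members (59.5%, Wilson 95% interval 53.6 to 65.1%). Diabetic 3, which had the most reads in its smaller library, supplied it in 61 (22.3%, 17.7 to 27.6%), and diabetic 1 in 50 (18.2%, 14.1 to 23.2%). The 3 shares are parts of 1 total and each rests on 1 animal, so their intervals are not compared. Control 3 shared most of the members with a diabetic 2 peak: 97 with control 1, 29 with control 2 and 33 with both. Outside the rule, control 3 and diabetic 2 alone had 200 regions. The parts of list length and of likeness between libraries in the order of the diabetic lists were not tested.

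Regions were also counted per combination of lists. A pair of control lists alone had on average 59.3 regions (32 to 78 over 3 pairs), a control and a diabetic list alone had 57.9 (8 to 200 over 9 pairs), and a pair of diabetic lists alone had 94.3 (84 to 109 over 3 pairs). The order of these means changed with the processing: without peaks of the shortest width (described with the 43 regions of control 1 and control 2) they were 42.0, 55.4 and 93.7, and with all lists held to the length of the shortest they were 83.0, 51.3 and 73.0. For 3 lists, combinations of 2 control lists and 1 diabetic list averaged 24.8 regions (4 to 97), against 49.4 (10 to 133) for 1 control list and 2 diabetic lists. For 4 lists, combinations with 3 control lists and 1 diabetic list averaged 17.0 regions (9 to 33), those with 2 of each 37.0 (8 to 119), and those with 1 control list and 3 diabetic lists 136 (32 to 327). Members with 3 control lists were therefore the sparsest of the classes of 4 lists.

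The same rule, applied to another set of 3 lists in place of the controls, mostly found more regions in the lists as deposited. The 18 mixed sets gave 334 to 1368 regions, 2.68 to 11.0% of the union. Only 2 of them gave fewer than the 452 of the controls: control 1 and control 2 with diabetic 1 (334 regions), and the same controls with diabetic 3 (352 regions, 2.82%). The 3 diabetic lists gave 1137, 9.12% of the union, a ratio of 2.52 to the controls. Among mixed sets, the highest counts joined control 3 to diabetic libraries, with 1368 for control 3, diabetic 2 and diabetic 3. This picture depended on list length. With all lists held to 9082 regions, the controls gave 629 and the diabetic lists 761, a ratio of 1.21, and of the 18 mixed sets, which gave 481 to 816, 10 lay below the controls. When peaks under a 3-fold enrichment were dropped, the counts were 485 and 768, a ratio of 1.58, and 7 mixed sets lay below. The share of 3.63% is not read as a result about the members.

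**Figure D2:**
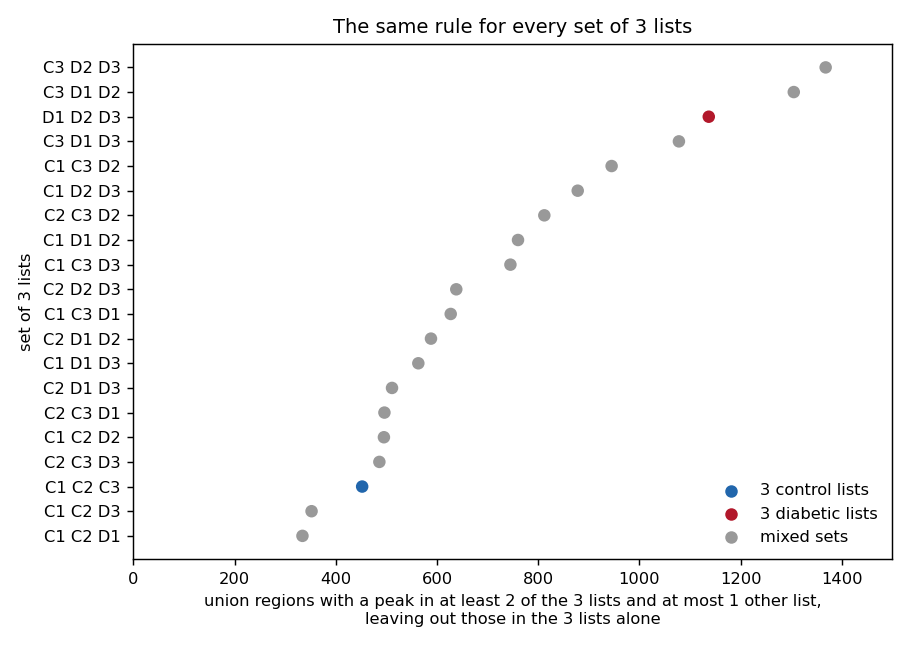
Number of union regions (horizontal axis) that meet the rule for each of the 20 sets of 3 lists (vertical axis, ordered by count; C, control; D, diabetic). The control set, in blue, has 452 regions and is the third lowest, and the diabetic set, in red, has 1137 and is the third highest, both with the lists as deposited.

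Just outside the rule lay the 25 regions found in all 3 control lists alone, 333 regions with 2 control and 2 diabetic lists, 197 with 3 control and 2 diabetic lists, and 985 in a single control list. The 223 members with 2 control lists and 1 diabetic list, just inside it, had a median fold enrichment of 2.99 and a median width of 202 bases. Those with 2 of each had 2.96 and 227 bases, and those in a single control list had 2.89 and 144 bases. Fold enrichment, as deposited by the authors, sets the pileup (the depth of stacked and extended IP reads at the summit) against the local background from input.

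A related choice was made from 4 lists at a time: 1 control and 1 diabetic library were left out in turn, regions were chosen for a peak in both remaining control lists and in neither remaining diabetic list, and the left-out libraries were read. The regions so chosen are not the members alone, and the left-out libraries are not independent of the members, which all 6 lists chose. Each choice holds the 25 control-only regions, which are no members, and 51 to 198 members. Those 25 all count toward the left-out control peaks, beside 9 or 33 members. Under the rule, a member with the left-out control peak must also have the left-out diabetic peak. Among members alone the left-out control peak was therefore the rarer in all 9 choices, in 9 or 33 members against 19 to 130. On average over the 9 such choices, 34.7% of the chosen regions had a peak in the left-out control library and 30.5% in the left-out diabetic library. With the 25 control-only regions counted, the control share was higher in 6 of 9 choices and lower in 3. With diabetic 1 left out it was higher each time, by a mean of 10.8 percentage points. With diabetic 2 left out it was lower in 2 of 3 choices, with a mean difference of -6.88 points. With control 2 and diabetic 2 left out the shares were 26.0% (58 of 223; Wilson 95% interval 20.7 to 32.1%) and 58.3% (130 of 223; 51.7 to 64.6%). This was the widest gap of the 9 and ran against the controls. The 9 choices share libraries, so no p is given. The order of the mean shares turned with a −log10 q of at least 5 (30.3% control, 30.4% diabetic). It also turned when peaks under a fold enrichment of 3 were dropped (34.2% and 36.3%). With lists of equal length the gap was wider, at 45.1% and 34.8%, as it was without peaks no wider than 1 extended read, at 41.4% and 32.8%. Control-only regions were not counted apart under these settings, so the shifts say nothing about the members.

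The opposite choice gave other values, but each choice holds the 137 diabetic-only regions, which are not diabetes-leaning. Those 137 all count toward the left-out diabetic peaks, beside 50, 32 or 327 diabetes-leaning regions with control 1, 2 or 3 left out. Under the rule, a diabetes-leaning region with the left-out diabetic peak must also have the left-out control peak. Among diabetes-leaning regions alone, the left-out control peak was therefore the more common (69 to 86, 42 to 64 and 378 to 460 regions). Regions chosen for a peak in 2 diabetic lists and in neither of 2 control lists had a peak in the left-out diabetic library in 63.7% on average and in the left-out control library in 36.2%, with the diabetic share higher in 9 of 9 choices. Much of this difference depended on which control library was left out. The diabetic share led by a mean of 34.5 points with control 1 left out, by 41.9 with control 2 and by 6.12 with control 3. The difference between the 2 directions was not tested, and 137 such regions entered this direction against 25 in the first.

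**Figure D3:**
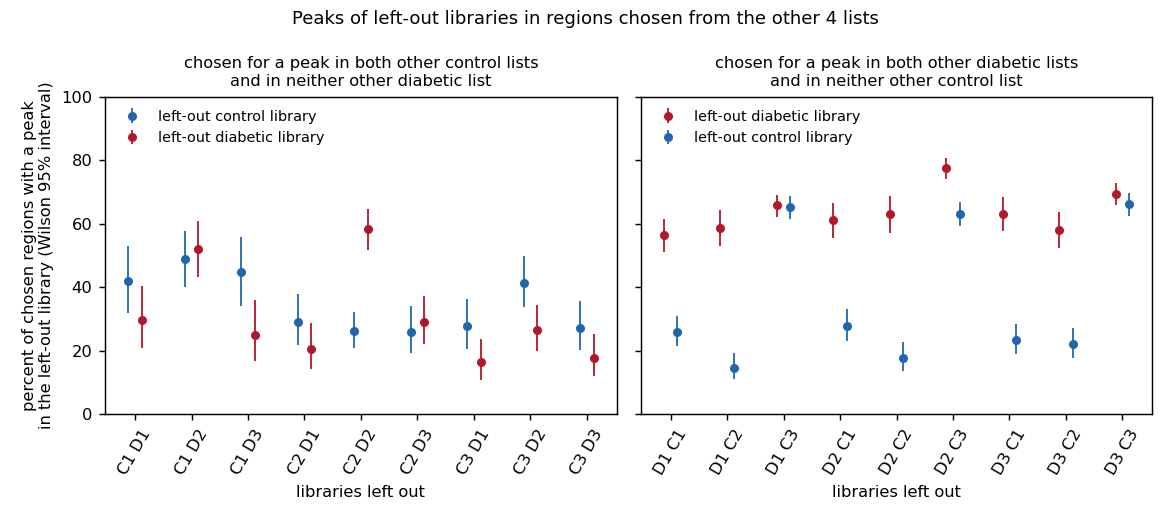
Percent of chosen regions with a peak in each left-out library (vertical axis, with Wilson 95% intervals) for the 9 choices that leave out 1 control and 1 diabetic library (horizontal axis). On the left, regions lean to controls, and the left-out control shares of 26.0 to 48.7% overlap the left-out diabetic shares of 16.3 to 58.3%. On the right, regions lean to diabetic lists, and the diabetic shares of 56.3 to 77.5% lie above the control shares in each choice. The 25 control-only regions are in every choice on the left, and the 137 diabetic-only regions in every choice on the right. All of them count toward the left-out library of their own group.

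Control-leaning regions were narrow. Their median width was 186 bases (95% interval of the median 177 to 196; quartiles 151 and 249; range 120 to 748). Diabetes-leaning regions, selected by the mirrored rule, had a median of 204 bases (198 to 209). The remaining regions found in 2 to 4 lists had 193 bases (187 to 200), and regions in all 6 lists had 437 bases (430 to 444). More than 1 summit in any list was called in 81 members (17.9%), against 21.6% of diabetes-leaning regions and 55.1% of the regions in all lists. Width of members rose with the number of lists merged, with medians of 157.5, 202 and 220 bases in 2, 3 and 4 lists. Diabetes-leaning regions lay in more lists: 283, 445 and 409 in 2, 3 and 4 lists, against 178, 223 and 51 members. Without the 43 shortest regions described below, the median of the members was 196 bases (187 to 207). The widest member, on chromosome 3 from 113264759 to 113265506 (748 bases), had pileups of 60.0 in control 1, 61.0 in control 3 and 57.9 in diabetic 2, with fold enrichments of 3.44, 3.20 and 2.87. Its summits in the 3 lists lay up to 600 bases apart, and a region present in all lists began 195 bases away.

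Members were among the weaker peaks of each list. Median pileup at member peaks was 58.0 in control 1, 54.8 in control 2 and 61.0 in control 3, where the whole lists had medians of 94.0, 88.8 and 107. In diabetic 1, 2 and 3 it was 56.7, 62.3 and 72.1, where the whole lists had 101, 108 and 131. Every list thus had its member peaks well below its middle, at median positions between percentiles 13.8 and 19.1 of fold enrichment. Low pileup was not particular to members. Diabetes-leaning regions had medians of 59.0, 54.8 and 59.0 in controls 1, 2 and 3, and 56.0, 61.05 and 74.1 in diabetic 1, 2 and 3. The median fold enrichment of member peaks was 3.16 in control 1, 3.08 in control 2 and 3.05 in control 3, and for the 3 diabetic lists 3.11, 2.87 and 2.73. The whole lists had medians of 4.96, 4.88 and 5.17 in controls and 5.02, 4.94 and 4.74 in diabetic rats. The weakest enrichment called over the genome-wide background floor was 1.85 to 2.04 over the 6 lists, a limit set by the calling. It was 2.02, 2.04 and 1.96 in controls 1, 2 and 3, and 1.97, 1.91 and 1.85 in diabetic 1, 2 and 3. Since this limit differed, the medians do not show weaker member peaks in diabetic rats. A −log10 q under 5 marked 13.3 to 16.5% of member peaks in control lists and 17.8 to 22.0% in diabetic lists, against 4.17 to 5.91% of all regions in any list.

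Enrichment was moderate across the members as a set. Taking the median over the lists of each region, control-leaning regions had a median fold enrichment of 3.08 (95% interval 3.01 to 3.16), diabetes-leaning regions 2.88 (2.84 to 2.93) and other regions in 2 to 4 lists 2.88 (2.81 to 2.94). Since height and enrichment chose the regions through the calls, this order is a description. A fold enrichment above 5 in any list was reached by 54 members (11.9%) and by 65 diabetes-leaning regions (5.72%). The 54 included 14 of the 43 shortest regions of control 1 and control 2 alone, described below. They also included 9 of the other 35 regions of that pair. Leaving out the 43, the share of members was 9.78%. Of all members, 176 (38.9%) had a fold enrichment of at least 3 in every control list that called them, and 12 lay above the middle of every such list. Where a diabetic list also called the region, its peak ranked below all control peaks of that region in 89 of 274 members, above them in 76 and between them in 109. The diabetic peak was ranked against 2 control peaks in 223 members and against 3 in 51. With more control than diabetic peaks in each member, most diabetic peaks would not be the lowest even without a difference in strength. Every peak ranked also had to pass the calling limit. These counts therefore do not show whether diabetic calls were weaker than control calls or as strong.

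**Figure D4:**
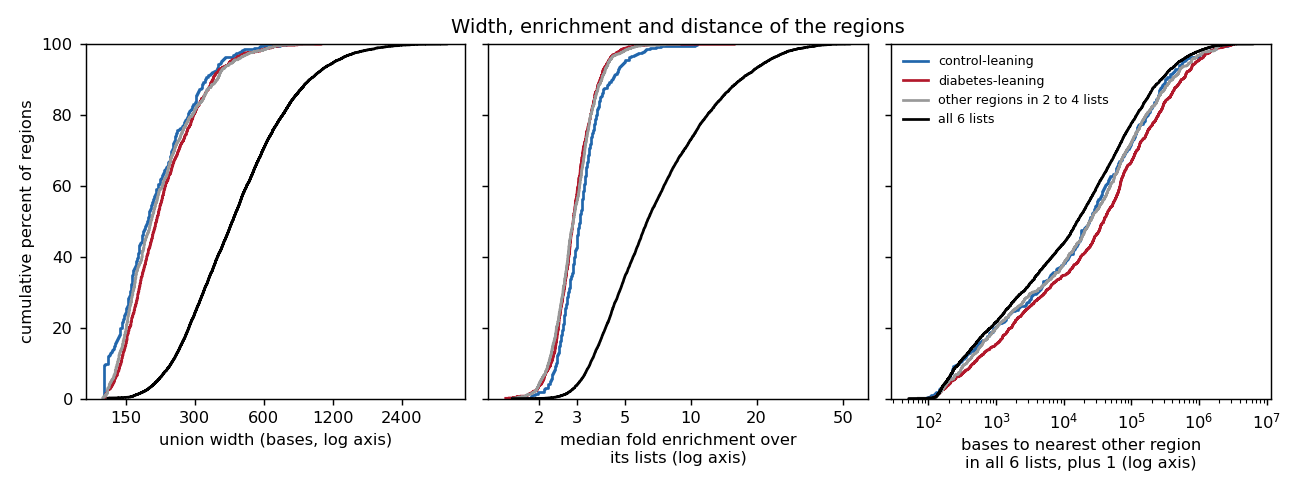
Cumulative percent of regions (vertical axis) against union width in bases, median fold enrichment over the lists of a region, and distance in bases to the nearest other region present in all 6 lists (log axes). Control-leaning regions (blue; medians 186 bases, 3.08 and 23.5 kb) run close to the other regions of 2 to 4 lists (grey; 193 bases, 2.88 and 24.2 kb) and to diabetes-leaning regions (red; 204 bases, 2.88 and 38.9 kb), and apart from regions in all lists (black; 437 bases, 6.30 and 15.9 kb) in width and enrichment.

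A distinct group of members was set apart by its width. Each read was extended to a length fixed for its library (118 to 125 bases), and no list held a region shorter than that length. Regions of exactly this length numbered 195 to 294 per list (1.85 to 3.24%), while those 1 base longer numbered 50 to 77. Among member peaks they made up 72 of 367 in control 1 (19.6%), 66 of 244 in control 2 (27.0%) and 30 of 346 in control 3 (8.67%), while diabetic 1, 2 and 3 had 5 of 50, 9 of 164 and 6 of 61. Most of these in controls 1 and 2 belonged to that pair of lists: of the 78 members in control 1 and control 2 alone, 43 (55.1%) had the shortest possible width in both. The same held for 10 of the 374 other members, and for 47 of the 2527 regions in 2 to 4 lists outside that pair (1.86%), with at most 4 in any other combination of lists.

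The 43 regions coincided to the base. Although the extension was 119 bases in control 1 and 120 in control 2, 21 regions had the same start in both lists and the other 22 had the same end. Such a common start or end was also seen in 54 of the 58 other regions in 2 or more lists whose peaks were all of the shortest width. In the 43 regions fold enrichment ran from 2.03 to 11.3 in control 1 (median 3.32) and from 2.13 to 10.001 in control 2 (median 3.29), and it was higher in control 1 in 20 regions and in control 2 in 23. None had a second summit, and only 1 had a local background above the floor. All duplicate reads were kept by the caller, per the file headers. The lists do not give the number of distinct read starts under a peak, so the part of duplicate reads was not tested.

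**Figure D5:**
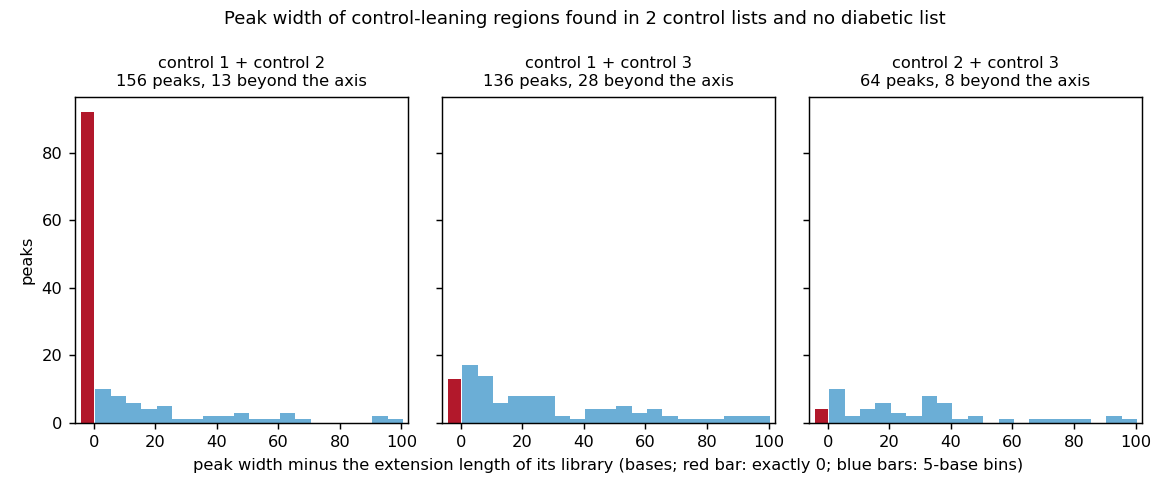
Peak width minus the extension length of the library, in bases (horizontal axis), against the number of peaks (vertical axis) for members found in 2 control lists and no diabetic list. The red bar counts peaks at exactly the extension length: 92 of 156 peaks for control 1 and control 2, 13 of 136 for control 1 and control 3, and 4 of 64 for control 2 and control 3.

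The 43 regions included the first 6 of all 452 members by the lowest percentile of fold enrichment over the control lists that had them, and the first 8 of the 178 members with no diabetic list, which are given here. The leading member lay on chromosome 12 from 45343964 to 45344083, with pileups of 199 in control 1 and 168 in control 2, fold enrichments of 11.3 and 10.001, and no peak in the other 4 lists. A region on chromosome 1 from 123912032 to 123912151 came second, with pileups of 194 and 165 and fold enrichments of 10.99 and 9.79. In both control lists these 2 members stood at or above percentiles 81.8 and 81.1, and the next member stood at 65.8. That member, on chromosome 4 from 35893596 to 35893715, had 7.32 and 6.53, and 1 on chromosome X from 121027509 to 121027628 had 6.14 and 6.89. Next within this class came chromosome 17 from 65476933 to 65477052 (6.31 and 6.05), chromosome 8 from 31795945 to 31796064 (5.86 and 5.87), chromosome 10 from 73021113 to 73021232 (9.13 and 5.51) and chromosome 20 from 28523134 to 28523253 (5.52 and 6.92). All 8 were 120 bases long in the union, were found in control 1 and control 2 alone, and lay 11.2 to 741 kb from the nearest region present in all lists.

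As a set, the 43 regions were not stronger than the other 35 of control 1 and control 2 alone: the median fold enrichment was 3.26 (95% interval 2.88 to 4.18) in the former and 3.46 (3.21 to 3.94) in the latter. The 4 highest-ranking members with 2 control lists, no diabetic list and no peak of the shortest width were picked after their values were seen. The first lay on chromosome 1 from 148643431 to 148643717, with pileups of 102 in control 1 and 80.2 in control 2 and fold enrichments of 5.80 and 4.79. Its neighbour, 208 bases away from 148643926 to 148644496, is itself a member and leads the class with 2 control lists and 1 diabetic list (percentile 57.9, ranked 7 of all members), with fold enrichments of 5.61 in control 1, 6.20 in control 2 and 3.31 in diabetic 3. The others lay on chromosome 5 from 167661714 to 167661894 (6.42 in control 1 and 4.98 in control 3), chromosome 4 from 179465977 to 179466139 (5.18 in control 1 and 4.67 in control 2) and chromosome 3 from 91660436 to 91660584 (5.01 in control 1 and 4.35 in control 2). A member on an unplaced sequence, from 893603 to 893730, had 5.92 in control 1 and 3.02 in control 2.

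Among members with 2 control lists and 1 diabetic list, the second in rank lay on chromosome 5 from 147633665 to 147633844. Its pileup was 77.1 in control 2, 98.0 in control 3 and 54.7 in diabetic 1, with fold enrichments of 4.61, 5.12 and 3.04, so the diabetic peak was the lowest. The same order held on chromosome 16 from 20417737 to 20418016 (5.01 in control 1, 4.86 in control 3 and 3.47 in diabetic 3), on chromosome 20 from 40878124 to 40878293 (4.62 in control 1, 4.97 in control 2 and 3.70 in diabetic 3) and on chromosome 4 from 115104376 to 115104535 (4.53 in control 1, 4.49 in control 3 and 2.46 in diabetic 2). Named regions were picked for high control peaks, a choice that favours a lower diabetic value. In 3 other named regions of this class the diabetic value was not the lowest. On chromosome 1 from 86811529 to 86811691 it was 5.20 in diabetic 3, beside 4.56 in control 1 and 5.40 in control 2. On chromosome 3 from 121753893 to 121754092 it was 5.07 in diabetic 1, above the 4.10 of control 2 and the 4.45 of control 3, and on chromosome 1 from 124983433 to 124983609 it was 4.57 in diabetic 2, between 5.58 in control 1 and 4.27 in control 3.

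Among the 51 members called in all 3 controls and 1 diabetic list, the leading one lay on chromosome 6 from 122717593 to 122717782, with pileups of 91.0, 86.8 and 109 in controls 1, 2 and 3 and 92.2 in diabetic 2. Fold enrichment there was 5.18 in control 1, 5.16 in control 2, 5.69 in control 3 and 4.54 in diabetic 2, so the control and diabetic values lay close together where the diabetic peak was called. A region on chromosome 9 from 79406269 to 79406403 had 5.01, 8.32 and 5.07 in controls and 3.70 in diabetic 1. One on chromosome 8 from 26341814 to 26341946 had 5.35, 4.19 and 4.50 and 3.16 in diabetic 3. In both, the diabetic peak was the weakest of the 4.

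On an unplaced sequence from 12943 to 13104, control 1 had a fold enrichment of 11.7, control 2 of 11.4, control 3 of 4.24 and diabetic 2 of 4.602, so the value of control 3 lay nearer to the diabetic animal than to the other controls. On chromosome 16 from 27234511 to 27234669 the diabetic 3 peak, at 6.36, was stronger than the control peaks of 4.34, 4.01 and 5.32. Chromosome 15 from 57894304 to 57894448 had 6.25, 4.32 and 4.04 in controls and 5.08 in diabetic 2. The last 2 of the 8 named regions with 3 control lists lay on chromosome 17 from 20879160 to 20879460 (3.66, 4.16 and 3.62, and 2.99 in diabetic 2) and chromosome X from 31787042 to 31787209 (3.49, 3.62 and 4.19, and 3.78 in diabetic 1). In 4 of these 8 regions the diabetic peak had a lower fold enrichment than all 3 control peaks. The regions were named for high control peaks, a choice that favours a lower diabetic value, so this count does not compare the groups. The fold is also relative to the background of its own library.

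Where lists shared a member, they placed it at nearly the same position, a property the rule did not use beyond 1 base of overlap. The summits of the lists spanned a median of 17 bases (quartiles 7 and 39) in members, 19 in diabetes-leaning regions and 17 in other regions of 2 to 4 lists. Regions in all 6 lists had 23 bases. In members the span rose with the number of lists, with medians of 8, 19 and 27 bases in 2, 3 and 4 lists. Diabetes-leaning regions lay in more lists. A span of at most 50 bases was found in 366 members (81.0%, Wilson 95% interval 77.1 to 84.3%), beside 79.1% (76.6 to 81.3%) of diabetes-leaning regions, so the intervals overlap. Without the 43 shortest regions among them, the 35 members of control 1 and control 2 alone had a median span of 6 bases. The bases common to all lists of a member covered a median of 72.7% of its width. Fold enrichment in the highest list exceeded that in the lowest by a median factor of 1.26, and by up to 3.52. The median factor also rose with the number of lists, at 1.18, 1.28 and 1.43 in members of 2, 3 and 4 lists.

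Distance to the regions present in all 6 lists differed with the controls that shared the member. Over all members, 92 (20.4%, Wilson 95% interval 16.9 to 24.3%) lay within 1 kb of such a region, and the median distance was 23.5 kb. Diabetes-leaning regions had 15.3% (13.3 to 17.5%) within 1 kb and a median of 38.9 kb, and other regions of 2 to 4 lists had 19.9% (17.4 to 22.7%) and 24.2 kb. Members of control 1 and control 3 alone lay close, with a median of 2.72 kb and 27 of 68 within 1 kb (39.7%, 28.9 to 51.6%). Those of control 2 and control 3 alone had a median of 21.2 kb, with 6 of 32 within 1 kb. The 43 shortest regions had a median of 216 kb, and 0 of 43 lay within 1 kb (Wilson upper limit 8.20%). The other 35 regions of control 1 and control 2 alone were also distant, with a median of 124.8 kb and 2 of 35 within 1 kb, and 25 of these 35 had a local background above the floor, compared with 25.4% of all members. With control 3 left out, the rule needs a peak in both control 1 and control 2, and the share within 1 kb was 8.06%. With control 2 left out, it needs both control 1 and control 3, and the share was 27.0%. These shares come from the same calls under a changed rule, so they add no separate result.

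Peaks of the lists that lacked a member were sometimes near. Within 1 kb of 120 members (26.5%, Wilson 95% interval 22.7 to 30.8%) lay a peak of a diabetic list that did not call the member, and for 28 members (6.19%) such a peak lay within 200 bases. Of the members without a control 2 peak, 68 of 209 (32.5%) had a control 2 peak within 1 kb. Of those without a control 3 peak, only 4 of 106 (3.77%, 1.48 to 9.30%) had a control 3 peak that near, and the median distance was 121 kb. Leaving the 43 shortest regions aside, the numbers for control 3 were 4 of 63 and 74.5 kb.

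Members lay on chromosomes 1 to 20 and X, with 2 on unplaced sequences and none on Y or the mitochondrial genome. Chromosome 1 had the most, 55 (12.2%), beside 11.3% of the union. Members were 1.90 to 4.91% of the union regions of each chromosome with at least 5 members, lowest on chromosome 6 and highest on chromosome 9. Chromosome 6 held 12 members (2.65%, Wilson 95% interval 1.53 to 4.58%) and 5.07% of the union, and it was the only 1 of 24 chromosomes and sequence groups whose union share fell outside the interval, with no adjustment for 24 comparisons. On chromosome X there were 9 members (1.99%, 1.05 to 3.74%) and 58 diabetes-leaning regions (5.10%), where the union has 2.46%.

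Some members lay side by side. Another member was within 10 kb of 48 of them (10.6%), in 22 groups, of which 3 had more than 2 members. The largest, on chromosome X from 18213220 to 18227676, held 4 members within 14.5 kb, 3 of them called in control 1, control 2 and diabetic 3 and 1 in control 1 and control 2 alone, with fold enrichments of 2.58 to 4.73. On chromosome 4 from 115104376 to 115106137, 3 members lay within 1.76 kb, all with control 1 and control 3 and 2 of them also with diabetic 2. On chromosome 15 from 25619799 to 25635032, 3 members lay within 15.2 kb, with fold enrichments of 1.93 to 4.08. All were called in control 3, joined by control 2 in 2 members and by control 1 in the other. Diabetic 3 also called 2 of the 3. Members this close are not independent of each other.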

How the data were processed

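Peak lists of 6 IP libraries (3 control, 3 diabetic rats) were used, where the 6 input samples serve as background only. MACS2 2.1.0, BWA 0.7.12, fastp 0.19.11 and CASAVA are named in the submitters' processing notes, with no genome build. Each IP library was set against the input of the same animal by the authors, per the file headers, at a q limit of 0.05, keeping duplicate reads, extending reads to 118 to 125 bases and scaling down the larger library. The deposited pileup is coverage signal, read at the summit. The columns of the deposited −log10 p and −log10 q values have lost their names, and MACS column order gave which is which. The deposited fold enrichment is the ratio of pileup to local background, each plus 1, as its values show: the lowest background computed from it matched the floor set by reads, extension and the effective genome size of 61.5 Mb. A background above 1.01 times the floor counted as above it.

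Lines with the same chromosome, start and end were joined, keeping the summit with the highest −log10 p, and lists were merged with Python 3.11.15 and pandas 2.3.3 (intervals with scipy 1.17.1). Merging, the rule and the left-out shares were checked on made-up lists with known answers. Within each of the 3 classes of members (2 control lists, 2 and 1 diabetic, 3 and 1 diabetic) the 8 regions with the highest value of the lowest fold enrichment percentile over the control lists are named, with the widest member and those on unplaced sequences. The members, lists and measures were chosen with earlier results of these data known. No test was run, since presence in lists chose the members. Positions are those of the files, 1-based. The last peak on chromosome 1 ends past that chromosome in the gene table at hand (GRCr8), so builds differ and genes were not analysed here. As alternatives, peaks were limited to a fold of 3 or more or a −log10 q of 5 or more, followed by equal list lengths (9082 regions), a reciprocal overlap of 50%, windows reaching 100 bases to each side of summits, assembled nuclear chromosomes and leaving out each library; leaving out regions of the shortest width was chosen after seeing the data.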

Additional observations from a re-analysis of the deposited data

How the results depend on the processing

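Between 390 and 629 regions were control-leaning when peaks were limited by fold (3 or more) or by −log10 q (5 or more), with equal list lengths, on nuclear chromosomes only, or without regions of the shortest width, beside 452. Reciprocal overlap gave 690 (276 without and 414 with a diabetic list) and summit windows 687 (428 with a diabetic list). Leaving out 1 library gave 164 to 852 regions, 59 to 310 without and 81 to 592 with a diabetic list, a median width of 163 to 205 bases, a median fold of 2.99 to 3.27 and 8.06 to 27.0% within 1 kb of a region in all lists; the rule over 5 lists is stricter without a control and looser without a diabetic library. Median width was 217 bases with a fold of at least 3, 210 with equal lengths, 207 with reciprocal overlap, 217 with summit windows and 205 without the shortest regions. Median fold was 3.21 with the q limit, 3.59 with the fold limit, 3.31 with reciprocal overlap and 3.30 with summit windows. The share within 1 kb was 16.7% with the fold limit, 25.5% with reciprocal overlap and 26.1% with summit windows. The left-out control share was 45.1% with equal lengths. A stricter limit on enrichment raises its median by construction; the cause of the other shifts was not tested. With a fold of at least 3, only 189 of the 452 members overlapped one of the 485 regions found then. The ratio of diabetes-leaning to control-leaning regions, 2.52 as reported, was 1.21 with equal list lengths (761 to 629), 1.58 with the fold limit (768 to 485) and 2.05 to 2.88 under the other settings with 6 lists. Without control 1, 2 or 3 the ratio was 10.2, 5.84 or 9.66, and without diabetic 1 it was 1.20. Fewer were diabetes-leaning than control-leaning without diabetic replicate 2 (730 against 852) or 3 (803 against 822). Leaving out a library makes the rule stricter for its own group and looser for the other, so these ratios do not compare the groups. No paired analysis was possible because no result comes from a test. Depth limits the calls: at the floor, enrichment under 1.85 to 2.04 was not called, and the enrichment of a member in lists without its peak is not known.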
